A study of Mus musculus with 9 samples.

Results

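The gene set comprised 206 genes that flank Ptprc on mouse chromosome 1. Deposited rows carried Ensembl identifiers, which were placed on GRCm38 with the GENCODE M21 annotation. A gene was a member if its midpoint lay within 20 Mb of the midpoint of Ptprc (chromosome 1, 118119284 to 158119284) and it reached a value of 1 in 3 or more of the 9 libraries. Of 227 deposited rows in that window, 19 fell below this minimum and 2, Ctse and Cxcr4, were left out by name. The members were 206 of the 13771 genes tested and of the 14461 deposited, and the other 726 tested genes of chromosome 1 served as background. Apart from leaving out Ctse and Cxcr4, the rule used position and a minimum level, and no difference between groups. Both of those genes were lower in irradiated LSK than in the other groups, as given below. Shares over all genes include them, and shares of members do not.

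RNA was sequenced from LSK cells, the fraction of bone marrow with Sca-1 and c-Kit but no lineage markers, which holds blood stem cells and early progenitors. The cells were sorted from parabiotic mice, which are surgically joined and share a circulation, kept free of specific pathogens. The 9 libraries formed 3 groups of 3, named circulating, irradiated and endogenous in the labels. Endogenous LSK carried the strain label B6SJL CD45.1, and both other groups the label C57BL/6. Per the series design, the circulating cells had reached the marrow of an irradiated parabiotic partner. Ages, doses and times are not given in the labels.

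Ptprc encodes CD45, the receptor-type tyrosine phosphatase on the surface of nearly all blood cells except mature red cells. Its alleles CD45.1 and CD45.2 are told apart by antibodies, and crossing the SJL allele into C57BL/6 mice carried flanking chromosome 1 sequence with it. B6SJL CD45.1 mice can therefore differ from C57BL/6 mice in genes near Ptprc as well as in Ptprc itself. The comparison that follows the strain label is endogenous LSK against the mean of the other groups, and group and strain label cannot be told apart in it. The labels do not say whether the strain is that of the sorted cells or of the mouse they were sorted from. In the titles, circulating libraries share one code (DD) with the irradiated libraries and a second code with the endogenous ones. If circulating cells carried the strain of the endogenous cells, the contrast of cell strain would be irradiated LSK against the mean of the others, which is also given.

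Depth was recovered from the steps of the values. Circulating replicate 2 was the shallowest library, with 14065855 estimated counts, and irradiated replicate 2 the deepest, with 27012345. Values are the deposited normalised signal, an estimated count divided by a scaled library size, so levels of different genes are not corrected for length. A count of 0 corresponded to a value of 0.0182 to 0.0376, and circulating replicate 2 had the most genes at 0 (560). The members made up 1.21% to 1.36% of the signal in every library. The gate genes Kit, Ly6a, Cd34, Flt3 and Ptprc were present in all 9 libraries. In the pairwise comparisons Kit was the only 1 of these 5 to pass the test, being lower in circulating than in endogenous LSK. The labels do not state whether replicates are different animals, so the p-values reflect only how much these samples vary, possibly for technical reasons. In bulk RNA, fewer cells of a type and less RNA per cell cannot be told apart.

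The members were 149 protein-coding genes, 37 loci of the annotation class TEC, which await experimental support, 7 processed transcripts, 6 lincRNAs, 4 sense-intronic and 3 antisense transcripts. Ptprc lay on the minus strand at chr1:138062861-138175708, with 121 members before and 84 after it. The library chemistry does not mark strand, and 32 members overlapped another deposited gene on the opposite strand. Their reads could not be assigned by strand.

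Promoter sequence from RefSeq (GRCm38.p6, the C57BL/6 reference, 300 bases around a start site) was matched to 131 of the 206 members, with 179 windows. Of the 16 members that passed the test in at least 1 comparison, 13 had a window and Rab7b, Epb41l5 and Gm37718 had none. The windows below are shown because Rgl1, at 1 of its start sites, and Arpc5 start head to head. The 2 genes moved in opposite directions between circulating and endogenous LSK. Capitals mark matches to GGGCGG or CCAAT on either strand (CCGCCC and ATTGG in the reverse sense).
Rgl1 (chr1:152766256-152766555, minus strand): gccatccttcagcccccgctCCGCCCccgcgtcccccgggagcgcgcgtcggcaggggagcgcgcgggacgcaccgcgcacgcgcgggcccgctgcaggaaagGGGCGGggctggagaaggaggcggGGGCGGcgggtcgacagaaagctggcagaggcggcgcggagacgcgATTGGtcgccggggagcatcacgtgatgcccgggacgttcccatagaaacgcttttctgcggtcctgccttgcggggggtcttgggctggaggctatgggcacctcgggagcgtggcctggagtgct
Arpc5 (chr1:152766292-152766591, plus strand): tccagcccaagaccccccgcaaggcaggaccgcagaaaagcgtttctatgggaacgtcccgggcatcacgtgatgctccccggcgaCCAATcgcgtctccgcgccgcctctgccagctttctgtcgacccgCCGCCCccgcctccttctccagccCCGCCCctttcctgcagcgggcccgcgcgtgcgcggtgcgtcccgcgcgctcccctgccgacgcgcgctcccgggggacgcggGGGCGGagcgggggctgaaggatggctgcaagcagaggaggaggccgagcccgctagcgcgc

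The start sites of the printed Rgl1 and Arpc5 windows lay 237 bases apart and these windows shared 264 bases (152766292 to 152766555). Those bases held the 3 GGGCGG and 1 CCAAT matches of both printed windows. Rgl1 had another window, at chr1:152625168-152625467 and away from Arpc5, with 0 matches to any of the motifs. The value of Rgl1 does not tell its start sites apart. Across all member windows GGGCGG was found in 53.1%, against 35.7% of all 32851 promoter windows of the table, and CCAAT in 40.8% against 37.4%. TATAAA was found in 3.35% against 13.6% and TTCCGG in 18.4% against 14.9%, searched on both strands. The 32851 windows were not limited to genes that reached the minimum value, as the members were. These shares therefore differ in that filter as well as in position, and no share over the tested genes was taken. Among the 17 windows of members that passed the test, 9 held GGGCGG, 6 CCAAT, 2 TTCCGG and 0 TATAAA. These matches are descriptions of sequence.

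Along the strain label, the share of members called was close to that of the rest of chromosome 1 and of all genes. In endogenous LSK against the mean of circulating and irradiated LSK, 12 of 206 members (5.83%) passed limma's test at an adjusted p under 0.05, the threshold for a call throughout. Log2 differences were taken after adding 1 to each value, so those of low genes are too small. This compared with 42 of 726 other chromosome 1 genes (5.79%) and 6.09% of all genes tested. Of the 12, 4 were higher and 8 lower in endogenous LSK (backgrounds 1.74% and 4.35%). At an unadjusted p under 0.05 the shares were 22.8% of members, 20.7% of other chromosome 1 genes and 23.3% of all genes. The median log2 difference was 0.08 over members, 0.08 over the other chromosome 1 genes and 0.03 over all genes, and the median absolute log2 difference was 0.304, 0.312 and 0.298.

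The count of 12 depended on single libraries: it was 27 without circulating replicate 1. It was 2, 2 and 3 without endogenous replicates 1, 2 and 3, and 3, 7 and 4 without irradiated replicates 1, 2 and 3. With the values rescaled by the library total alone, 13 members passed, 8 higher and 5 lower in endogenous LSK, against 4 and 8 in the deposited scaling. That rescaling raised the median of all genes by 0.16 on the log2 scale in this comparison. Calls in the alternative fits, here and below, were kept for members only. Their counts therefore have no share over all genes beside them and cannot be read as particular to the interval.

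**Figure D1:**
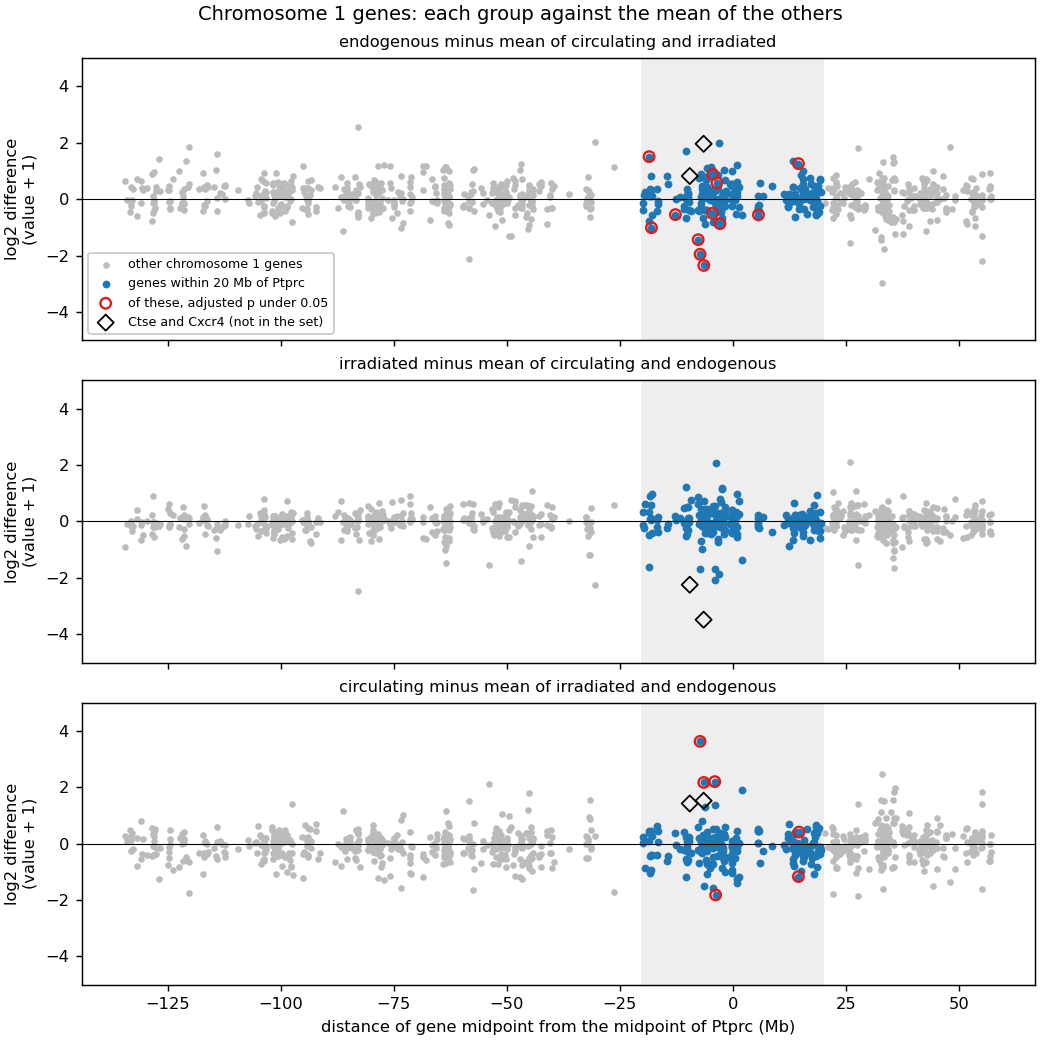
Each point is a gene of chromosome 1, placed by the distance of its midpoint from that of Ptprc (Mb, x axis) and by its log2 difference on the log2(value + 1) scale (y axis), with 1 panel for each group against the mean of the others. Blue points are the 206 members, red rings mark those with an adjusted p under 0.05 (12 in the endogenous, 0 in the irradiated and 6 in the circulating panel), grey points are the other 726 genes and diamonds are Ctse and Cxcr4.

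The pairwise comparisons called few members. Circulating against endogenous LSK gave 10 members (4.85%), 7 higher and 3 lower in circulating cells, against 6.89% of other chromosome 1 genes and 8.63% of all genes (5.33% higher and 3.3% lower). At an unadjusted p under 0.05 these were 27.2% of members, 25.2% of other chromosome 1 genes and 26.7% of all genes. The 10 became 36 without circulating replicate 1 and 4 without any single endogenous replicate. They became 18 under rescaling by the library total, 5 higher and 13 lower, with the median of all genes shifted by -0.20, and 3 when only the 2 groups compared were fitted.

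Irradiated against endogenous LSK gave 2 members (0.971%), Dbi higher and Epb41l5 lower, against 0.964% of other chromosome 1 genes and 0.603% of all genes (0.472% higher and 0.131% lower). At an unadjusted p under 0.05 there were 17% of members and 14.9% of all genes. The count was 0 without any single irradiated or endogenous replicate, 6 without circulating replicate 1 and 5 without circulating replicate 3. It was 17 with only the 2 groups in the fit, 19 with sample weights and 5 when a value of 5 in 3 libraries was required.

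Circulating against irradiated LSK, which share a strain label that may not be that of the sorted cells, gave 0 members by limma, against 0.029% of all genes. The 4 genes called over all include Ctse and Cxcr4, in the window but left out of the set (limma adjusted p = 7.8e-06 and 0.00096). At an unadjusted p under 0.05, 34 members (16.5%) differed, against 9.92% of other chromosome 1 genes and 11.4% of all genes. Without circulating replicate 1, Chit1, Fcmr and Rab7b passed, and without circulating replicate 3 Ppfia4 did. Among genes averaging 2 or more on the log2(value + 1) scale, a subset taken after the values were seen, the unadjusted shares were 13.7% of 153 members, 11.1% of other chromosome 1 genes and 11.8% of all genes.

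Ptprc itself was at 651, 646 and 450.1 in circulating, 510.0, 499 and 449.7 in irradiated and 605, 607 and 557 in endogenous LSK. Irradiated libraries all lay below the endogenous ones, and the circulating libraries overlapped both other groups. Ptprc passed in none of the 6 comparisons (endogenous against the mean of the others, log2 difference 0.16, SE 0.12, limma adjusted p = 0.48). These are sums over both alleles and do not tell CD45.1 from CD45.2 transcripts.

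The 4 nearest members on each side of Ptprc did not pass either. Before it lay Gm37632, Gm37534, Gm4258 and D130019J16Rik, and after it A130071D04Rik, Nek7, Gm37080 and Gm37101. Gm37632, Gm37534, Gm4258, D130019J16Rik, Gm37080 and Gm37101 ranged from 0.0283 to 10.7 over the 9 libraries. Nek7, a mitotic kinase that also acts in the inflammasome, was the only 1 of the 8 that codes for protein. It was at 97.0, 111.5 and 61.6 in circulating, 97.5, 87.4 and 88.0 in irradiated and 92.9, 74.3 and 94.3 in endogenous LSK. Its groups overlapped fully (endogenous against the mean, log2 difference -0.04, SE 0.18, limma adjusted p = 0.92). A130071D04Rik lies within Ptprc on the same strand and ranged from 11.5 to 31.9, so its reads may include Ptprc.

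**Figure D2:**
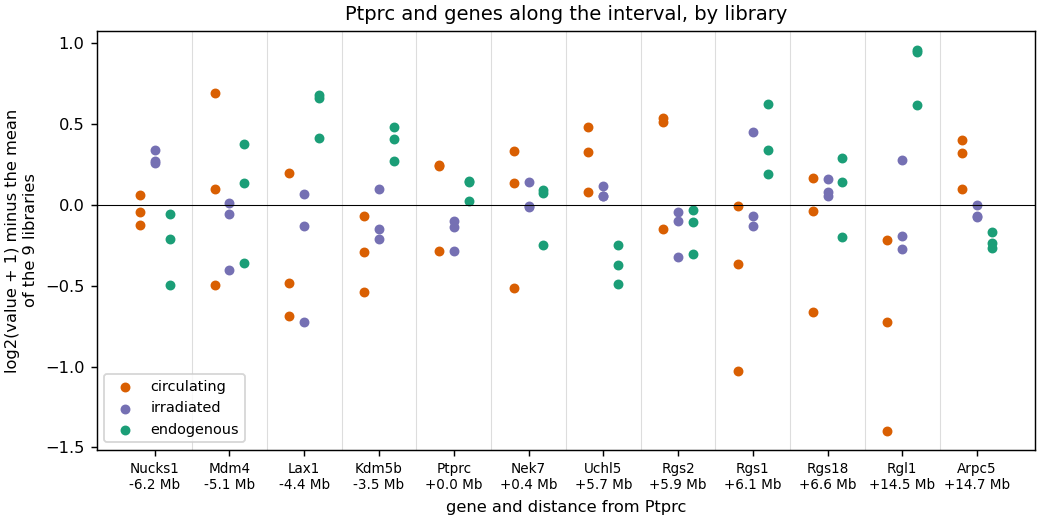
Values of 12 members in map order (x axis, distance from Ptprc in Mb) as log2(value + 1) minus the mean of the 9 libraries (y axis), with 1 point per library coloured by group. Endogenous points lie above all others for Lax1, Kdm5b and Rgl1 and below all others for Uchl5 and Arpc5, while no group lies apart from all the others for Ptprc and Nek7.

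In all, 16 of 206 members (7.77%) passed in at least 1 of the 6 comparisons and 190 in none, against 8.4% of other chromosome 1 genes and 9.61% of all genes. Of the resulting 30 calls, 4 held in every alternative run, those of Dbi and Rab7b in circulating against endogenous and in endogenous against the mean, and 0 reversed direction. The other 26 ended in at least 1 alternative, most often without an endogenous library (22, 22 and 21 of the 30 calls ended without replicates 1, 2 and 3).

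Dbi, 18 Mb before Ptprc, encodes the acyl-CoA-binding protein that carries activated fatty acids. It was at 116.8, 172 and 182.5 in circulating, 169.6, 165.9 and 160.0 in irradiated and 79.6, 80.5 and 76.2 in endogenous LSK. All 3 endogenous libraries lay below the other 6. The log2 difference was 0.96 (SE 0.17, limma adjusted p = 0.010) for circulating and 1.06 (SE 0.17, adjusted p = 0.018) for irradiated against endogenous LSK. Against the mean of both, endogenous LSK fell by 1.01 (SE 0.14, adjusted p = 0.0054). The irradiated call ended without any single irradiated or endogenous library (limma adjusted p 0.072 to 0.12). The other calls of Dbi held in every alternative.

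Cd55 encodes decay-accelerating factor, a membrane inhibitor of complement. It was at 26.5, 21.0 and 44.6 in circulating, 34.1, 32.9 and 33.4 in irradiated and 12.8, 13.1 and 7.80 in endogenous LSK. Again every endogenous library was lower than the other 6. Cd55 fell by 1.43 on the log2 scale in endogenous LSK against the mean (SE 0.26, limma adjusted p = 0.015) and was higher in circulating than in endogenous LSK by 1.34 (SE 0.30, adjusted p = 0.026). Both calls ended without each endogenous library in turn, and the pairwise call also without circulating replicate 3 (limma adjusted p 0.055 to 0.079).

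Actr3 and Arpc5 encode subunits of the complex that nucleates branched actin filaments. Actr3 was at 793, 1179 and 1340.0 in circulating, 978, 943 and 1060.0 in irradiated and 684, 711 and 731 in endogenous LSK, all 3 endogenous libraries below the rest. It was higher in circulating than in endogenous LSK by 0.61 on the log2 scale (SE 0.16, limma adjusted p = 0.043) and in endogenous against the mean fell by 0.55 (SE 0.14, adjusted p = 0.045). Among the fits without 1 library both calls held only without circulating replicate 1 (limma adjusted p 0.053 to 0.16 without each of the others). The pairwise difference was 0.40 without a call under rescaling by the library total.

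Arpc5 was at 568, 701 and 662 in circulating, 506, 529 and 503 in irradiated and 472, 450.3 and 441 in endogenous LSK. The 3 groups did not overlap, in the order circulating, irradiated, endogenous. It was higher in circulating than in endogenous LSK by 0.50 (SE 0.10, limma adjusted p = 0.021) and than the mean of the others by 0.41 (SE 0.09, adjusted p = 0.046). Irradiated and endogenous LSK differed by 0.17 (SE 0.10, adjusted p = 0.49). The pairwise call ended without each endogenous library (adjusted p 0.060 to 0.064) and under rescaling by the library total, which lowered the difference to 0.29. The call against the mean ended in every fit without 1 library except circulating replicate 1 (adjusted p 0.080 to 0.11).

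Rgl1, the head-to-head neighbour of Arpc5 with a start site printed above, encodes a guanine nucleotide exchange factor of Ral GTPases. Its order was the opposite: 12.2, 7.32 and 17.9 in circulating, 18.2, 25.5 and 17.1 in irradiated and 32.6, 41.5 and 41.2 in endogenous LSK. Endogenous libraries lay above all others, while circulating and irradiated libraries overlapped. Circulating LSK were lower than endogenous LSK by a log2 difference of -1.62 (SE 0.31, limma adjusted p = 0.015), and endogenous LSK were higher than the mean of the others by 1.26 (SE 0.27, adjusted p = 0.025). Against the mean of the others circulating LSK differed by -1.17 (SE 0.27, limma adjusted p = 0.0497). The pairwise call ended without endogenous replicates 2 and 3 (limma adjusted p 0.052 to 0.059). The endogenous call ended without each endogenous library or irradiated replicates 1 and 3 (limma adjusted p 0.068 to 0.11), and the call of circulating LSK against the mean without any library but circulating replicate 1 (0.053 to 0.12).

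Uchl5, a deubiquitinating enzyme bound to the proteasome, was at 299, 354 and 394 in circulating, 293, 294 and 307 in irradiated and 218, 238 and 201 in endogenous LSK. Endogenous libraries were below the other 6. It was higher in circulating than in endogenous LSK by 0.66 (SE 0.13, limma adjusted p = 0.014) and lower in endogenous LSK against the mean by a log2 difference of -0.55 (SE 0.11, adjusted p = 0.019). Without endogenous replicate 1 the pairwise adjusted p was 0.055, and the call against the mean ended without each endogenous library and without irradiated replicates 1 and 3 (limma adjusted p 0.055 to 0.085).

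Rnpep and Snrpe passed only in endogenous LSK against the mean. Rnpep, which encodes aminopeptidase B, was at 68.5, 88.6 and 129.5 in circulating, 118, 113 and 161 in irradiated and 60.2, 50.4 and 69.0 in endogenous LSK. Circulating replicate 1 lay inside the endogenous range. It differed by -0.87 (SE 0.20, limma adjusted p = 0.033). Snrpe, a core protein of the spliceosomal small nuclear ribonucleoproteins, was at 182, 215 and 224 in circulating, 211, 231 and 214 in irradiated and 135, 142 and 174 in endogenous LSK, the endogenous libraries all below the other 6. It differed by -0.50 (SE 0.12, limma adjusted p = 0.035), and by -0.33 without a call under rescaling by the library total. Both calls ended without any single irradiated replicate and without endogenous replicates 1 and 2, and that of Rnpep also without endogenous replicate 3 (limma adjusted p 0.052 to 0.15).

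Besides Rgl1, 3 members were higher in endogenous LSK against the mean. Epb41l5, a membrane-to-cytoskeleton linker of the FERM family, was at 7.96, 5.70 and 9.88 in circulating, 1.79, 2.79 and 4.78 in irradiated and 16.4, 14.9 and 15.6 in endogenous LSK. Its 3 groups did not overlap and irradiated LSK were lowest. Irradiated LSK were lower than endogenous LSK by a log2 difference of -2.08 (SE 0.36, limma adjusted p = 0.026), and endogenous LSK were above the mean of the others by 1.51 (SE 0.31, adjusted p = 0.021). Circulating and irradiated LSK differed by 1.14 (SE 0.36, limma adjusted p = 0.31). The pairwise call ended without any single irradiated or endogenous library (adjusted p 0.080 to 0.16), the other without each endogenous library or irradiated replicate 1 (0.055 to 0.099).

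Kdm5b, a histone demethylase that removes an active promoter mark, was at 77.9, 65.5 and 91.1 in circulating, 82.4, 102.7 and 86.3 in irradiated and 116, 134 and 127 in endogenous LSK. Lax1, an adaptor protein in lymphocyte membranes, was at 61.3, 37.9 and 32.7 in circulating, 55.9, 48.6 and 31.9 in irradiated and 85.9, 85.1 and 71.5 in endogenous LSK. In both genes every endogenous library was above the other 6. Kdm5b was higher in endogenous LSK by 0.58 (SE 0.14, limma adjusted p = 0.035) and lower in circulating than in endogenous LSK by a log2 difference of -0.69 (SE 0.16, adjusted p = 0.029). Lax1 was higher by 0.88 (SE 0.23, limma adjusted p = 0.046). Both calls of Kdm5b ended without each endogenous library (limma adjusted p 0.069 to 0.14), the pairwise one also without circulating replicate 2 and irradiated replicate 3 and the other without irradiated replicates 1 and 3. Among the fits without 1 library, the Lax1 call held only without circulating replicate 1 (limma adjusted p 0.054 to 0.17 without each other library).

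Gm37718, a TEC locus 1.04 Mb after Ptprc, was called in circulating against endogenous LSK alone, and is named here after its values were seen. It was at 3.62, 0.789 and 0.595 in circulating, 5.29, 2.94 and 3.99 in irradiated and 7.52, 6.95 and 6.18 in endogenous LSK (log2 difference -1.74, SE 0.43, limma adjusted p = 0.035). All endogenous libraries were highest. Among the fits without 1 library, the call held only without circulating replicate 1 (limma adjusted p 0.056 to 0.11 without each other library).

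**Figure D3:**
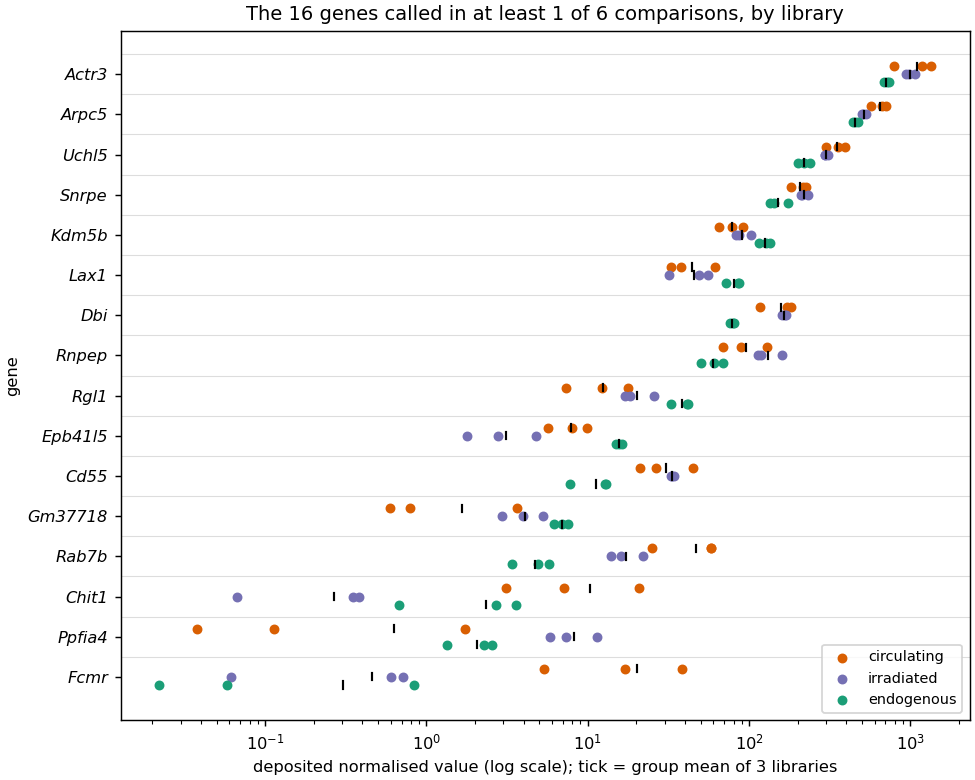
Deposited normalised value in each library (x axis, log scale) of the 16 members that passed in at least 1 of the 6 comparisons (y axis), coloured by group, with a tick at the group mean of 3 libraries. The 3 endogenous libraries lie apart from the other 6 for Dbi, Cd55, Actr3, Arpc5, Uchl5, Snrpe, Rab7b, Kdm5b, Lax1, Rgl1, Epb41l5 and Gm37718. All circulating libraries lie highest for Rab7b, Fcmr and Arpc5.

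Rab7b and Fcmr were highest in all circulating libraries, and Chit1 only in the circulating group mean. Rab7b, a small GTPase of late endosomes and the trans-Golgi network, was at 25.1, 58.1 and 58.0 in circulating, 22.0, 16.0 and 13.9 in irradiated and 3.37, 4.93 and 5.74 in endogenous LSK. The 3 groups did not overlap. It was higher in circulating than in endogenous LSK by 3.01 (SE 0.36, limma adjusted p = 0.0026) and than the mean of the others by 2.17 (SE 0.31, adjusted p = 0.014), and endogenous LSK against the mean differed by -2.35 (SE 0.31, adjusted p = 0.0041). Irradiated against endogenous LSK gave 1.69 (SE 0.36, limma adjusted p = 0.063). Without circulating replicate 3 the call against the mean ended (adjusted p = 0.051).

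Fcmr, a receptor for the Fc part of IgM found chiefly on B cells, was at 5.36, 38.3 and 17.0 in circulating LSK. It was at 0.606, 0.712 and 0.0615 in irradiated and 0.0584, 0.0221 and 0.832 in endogenous LSK, where endogenous replicate 2 was at a count of 0. The log2 difference was 3.72 (SE 0.58, limma adjusted p = 0.0077) for circulating against endogenous LSK and 3.62 (SE 0.50, adjusted p = 0.011) for circulating LSK against the mean. With voom on recovered counts these became 7.04 and 6.27, without a call (adjusted p = 0.056 and 0.054), since the fitted size of a change from near 0 depends on the constant added. Fcmr in endogenous LSK against the mean differed by -1.95 (SE 0.50, limma adjusted p = 0.045), with -1.15 at a pseudocount of 4 and -4.30 with voom. Among the fits without 1 library, Fcmr kept that call only without circulating replicates 1 or 2 (limma adjusted p 0.066 to 0.17 without each other library).

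Some markers of B cells were, like Fcmr, higher in circulating than in endogenous LSK. The summed value of 6 B cell markers was 107 to 282 in circulating, 67.6 to 93.5 in irradiated and 69.3 to 99.2 in endogenous LSK. Of the 5 that were tested, 2 were higher in circulating than in endogenous LSK, Cd79a among them. Pax5, which was not tested, was at 3.94 at most and at 0.188 in circulating replicate 2. Among T cell markers 0 of 5 tested passed in the pairwise comparisons. Their summed values were 5.19 to 115 in circulating, 2.68 to 5.99 in irradiated and 11.9 to 17.4 in endogenous LSK. Fcmr, the B cell sum and the T cell sum were all highest in circulating replicate 2. Among the circulating libraries all of them were lowest in replicate 1, so this order was not particular to B cell markers. Their part in the result was not tested.

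Chit1, the chitinase chitotriosidase of macrophages, was at 3.10, 20.8 and 7.16 in circulating, 0.0674, 0.383 and 0.348 in irradiated and 3.60, 2.71 and 0.677 in endogenous LSK. Irradiated libraries were below the other 6, and circulating replicate 1 lay inside the endogenous range. Circulating LSK were above the mean of the others by 2.20 (SE 0.50, limma adjusted p = 0.048), a call that held only without circulating replicate 1 among the fits without 1 library. The difference was 3.45 with voom and 1.28 at a pseudocount of 4, both without a call. The summed value of 6 monocyte and macrophage markers was 534 to 1722 in circulating, 330.3 to 823 in irradiated and 192 to 278 in endogenous LSK, and 2 of 6 (Ly6c2 and Ccr2) were higher in circulating than in endogenous LSK. Markers of other cells moved in the same comparison. Of dendritic cell markers 2 of 4 tested, Xcr1 and Clec9a, were higher in circulating than in endogenous LSK. The summed value of the list was 381 to 797 in circulating, 336 to 488 in irradiated and 655 to 892 in endogenous LSK. Most of that sum was Flt3, also a gate gene, at 342 to 766, 325 to 469 and 642 to 870 in the same order. In mast cell and basophil markers 1 of 5 was higher, with sums of 121 to 760, 123 to 235 and 90.2 to 108 in the same order. Of erythroid markers 1 of 6 was higher (153 to 787, 120 to 430.5 and 117 to 154). The NK cell list had 1 of 2 higher, in irradiated against endogenous LSK too (515 to 896.5, 529 to 650.1 and 222 to 278). Lower in circulating than in endogenous LSK were 2 of 8 neutrophil markers (1147 to 1819, 806 to 1985 and 1088 to 2262) and 1 of 2 endothelial markers (87.8 to 104, 114 to 125 and 139 to 169). The part of these markers in the members' values was not tested.

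The comparison of irradiated LSK with the mean of circulating and endogenous LSK gave 0 members by limma, against 0.138% of other chromosome 1 genes and 0.0726% of all genes. The 10 genes called over all include Ctse and Cxcr4, which lie in the window but were left out of the set. The 0 therefore holds only with those 2 genes removed. At an unadjusted p under 0.05 the comparison gave 25 members (12.1%), against 8.68% of other chromosome 1 genes and 7.59% of all genes. In the subset averaging 2 or more on the log2(value + 1) scale, taken after the values were seen, 10.5% of members did. There it was 10% of other chromosome 1 genes and 7.96% of all genes. The member with the smallest adjusted p was Ppfia4, which encodes a liprin-alpha scaffold protein. It was at 0.113, 0.0376 and 1.73 in circulating, 11.4, 7.28 and 5.85 in irradiated and 2.28, 1.35 and 2.53 in endogenous LSK, with irradiated libraries above all others. The log2 difference was 2.08 (SE 0.38, limma adjusted p = 0.14), and it passed only with sample weights or without circulating replicate 3. Circulating LSK against the mean of the others gave -1.82 for Ppfia4 (SE 0.38, limma adjusted p = 0.037), which became -4.35 without a call under voom and ended in 7 of 9 fits without 1 library.

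The 2 genes left out of the set were both called in this comparison. They were also called in every other comparison except circulating against endogenous LSK (limma adjusted p = 0.33 for Ctse and 0.27 for Cxcr4). Ctse, 6.46 Mb before Ptprc, was at 508 to 713 in circulating, 45.4 to 75.7 in irradiated and 711 to 831 in endogenous LSK (irradiated against the mean, log2 difference -3.48, SE 0.16, limma adjusted p = 1.0e-06). Cxcr4, 9.53 Mb before it, was at 57.8 to 65.8, 8.54 to 14.5 and 44.2 to 50.8 in the same order (-2.24, SE 0.19, adjusted p = 0.00052). Of the 12 nearest members, 3 before and 3 after each gene, 0 passed in irradiated LSK against the mean. With 0.0726% of all genes called in this comparison, a count of 0 among so few says little about them. The largest log2 difference of the 12 was that of Cd55 (0.86, SE 0.26, limma adjusted p = 0.52), which lay 1846733 bases after Cxcr4.

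Rab7b starts 13.2 kb after Ctse and was at 13.9 to 22.0 in irradiated LSK, between the circulating and endogenous libraries (irradiated against the mean, log2 difference 0.18, SE 0.31, limma adjusted p = 0.93). Fam72a and Srgap2, the next genes before Ctse, gave 0.35 (SE 0.34) and -0.07 (SE 0.24), and Slc41a1 after it gave 0.71 (SE 0.47). Dars, an aminoacyl-tRNA synthetase gene 171 kb before Cxcr4, gave 0.13 (SE 0.12), and Mcm6, a subunit of the replicative helicase, -0.02 (SE 0.07). Mcm6 had the highest mean value of the members, which is not corrected for length, at 1106, 1132 and 1175 in circulating, 1049, 1038 and 1145 in irradiated and 1074, 1034 and 1016 in endogenous LSK.

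Each gene was also classed by whether the 3 values of a group all lay above or all below the 6 other values. Endogenous LSK stood apart in 30 members (14.6%), 18 higher and 12 lower, against 12.8% of other chromosome 1 genes and 14.6% of all genes (5.71% higher and 8.92% lower). Circulating LSK stood apart in 15 members (7.28%), 8 higher and 7 lower, against 7.99% and 8.74% (4.03% higher and 4.71% lower). Irradiated LSK stood apart in 11 members (5.34%), 6 higher and 5 lower, against 2.48% and 2.91% (1.68% higher and 1.23% lower). A subset taken after the values were seen held genes averaging 2 or more on the log2(value + 1) scale. In it the irradiated share was 2.61% of members (4 genes), 3.16% of other chromosome 1 genes and 2.97% of all genes. There the endogenous share was 17.6%, 14.4% and 16.2%, and the circulating share 8.5%, 8.44% and 9.02%.

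The 11 members in which irradiated LSK stood apart included Nucks1, which encodes a nuclear DNA-binding protein. It was at 141, 133 and 152 in circulating, 176, 174 and 184 in irradiated and 126, 103 and 139 in endogenous LSK (irradiated against the mean, log2 difference 0.44, SE 0.12, limma adjusted p = 0.47). Phlda3, a p53 target that restrains Akt, was at 0.429, 0.488 and 1.90 in circulating, 2.81, 6.66 and 2.48 in irradiated and 1.23, 1.57 and 1.22 in endogenous LSK (1.17, SE 0.36, adjusted p = 0.52). Acmsd, an enzyme of tryptophan breakdown, was at 3.39, 1.52 and 1.59 in irradiated LSK and under 1 in all 6 other libraries, and Ppfia4, Gm38399 and Gm37470 completed the 6 higher members. Ikbke, a kinase of innate immune signalling, was at 35.8, 42.9 and 65.3 in circulating, 23.5, 13.1 and 25.1 in irradiated and 48.9, 27.4 and 31.8 in endogenous LSK (-0.99, SE 0.28, limma adjusted p = 0.50). Tor1aip1, an inner nuclear membrane protein gene, was at 52.6 to 55.8 in irradiated LSK and 58.1 to 89.8 elsewhere, and it overlaps Tor1aip2 on the other strand. Prg4, Chit1 and Epb41l5 were the other lower members.

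**Figure D4:**
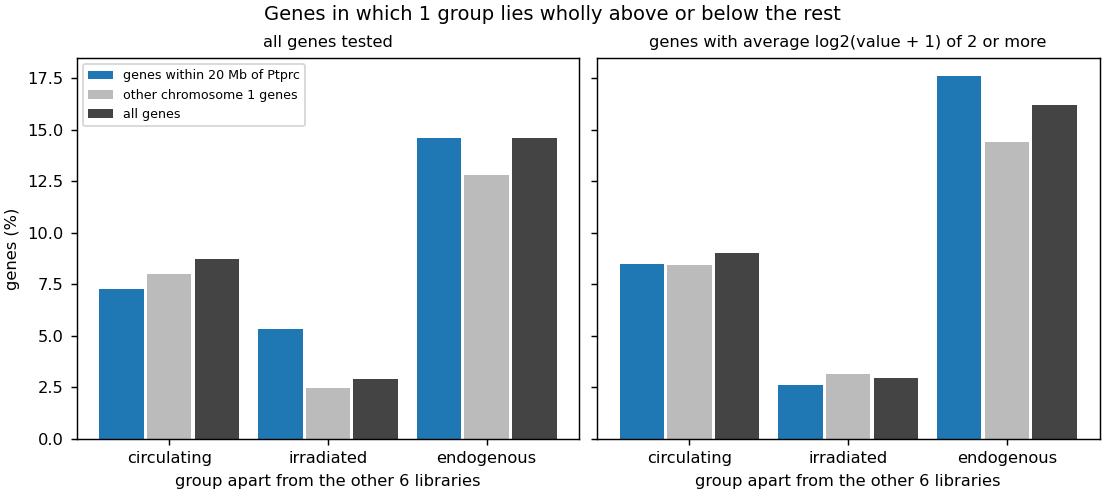
Share of genes (%, y axis from 0) in which the 3 libraries of a group all lie above or all below the other 6, by group (x axis), for the members, the other chromosome 1 genes and all genes. The left panel covers all genes tested, where the irradiated share is 5.34% of members against 2.91% of all genes, and the right panel genes averaging 2 or more on the log2(value + 1) scale, where it is 2.61% against 2.97%. The genes of the right panel are a subset taken after the values were seen.

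Circulating LSK against the mean of irradiated and endogenous LSK gave 6 members (2.91%), 4 higher (Rab7b, Fcmr, Chit1 and Arpc5) and 2 lower (Rgl1 and Ppfia4). The background was 2.2% of other chromosome 1 genes and 2.53% of all genes (1.39% higher and 1.15% lower), and at an unadjusted p under 0.05 it was 22.3% of members against 21.4% of all genes. The count was 24 without circulating replicate 1 and 2 in every other fit without 1 library, 2 with sample weights and 1 with voom. Under rescaling by the library total it split into 3 higher and 4 lower, with the median of all genes shifted by -0.13.

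Grouped by role, most members passed in no comparison (the counts are of members called in at least 1 of the 6, against 9.61% of all genes). In the Rgs cluster, whose proteins switch off G protein signals downstream of chemokine receptors, 0 of 5 measured members passed. Rgs18 was at 325, 375 and 211 in circulating, 373, 346 and 352 in irradiated and 368, 409 and 290.1 in endogenous LSK, with full overlap. Rgs1 was at 53.4, 68.5 and 33.4 in circulating, 94.5, 65.6 and 62.8 in irradiated and 87.4, 107 and 78.8 in endogenous LSK. Its circulating values lay below all endogenous values (circulating against endogenous, log2 difference -0.85, SE 0.26, limma adjusted p = 0.066), and it passed under rescaling by the library total. Rgs2 was at 149.5, 152 and 94.4 in circulating LSK against 83.6 to 102 in the others.

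Of 17 leukocyte signalling members 2 passed, Rgl1 and Lax1, both higher in endogenous LSK against the mean (list median log2 difference 0.19, against 0.03 over all genes). Rassf5, an effector of Rap1 in leukocyte adhesion, was at 225 to 280.5 in circulating, 234 to 282 in irradiated and 299.6 to 341 in endogenous LSK (0.36, SE 0.11, limma adjusted p = 0.078). Of 14 members of the cell division and DNA replication list, 0 passed (list median -0.06), although circulating LSK stood apart above the rest in 2, Kif14 and Tpr. Of 12 transcription and chromatin members 1 passed, Kdm5b (list median 0.29). Rnf2, the ubiquitin ligase of polycomb complexes, was at 186, 179 and 150.3 in endogenous LSK and 108 to 145 elsewhere (0.43, SE 0.13, limma adjusted p = 0.071).

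Of 11 members of the p53 and stress list 0 passed, with a median log2 difference of -0.08 in irradiated LSK against the mean and -0.16 in endogenous LSK against the mean. Mdm4, the inhibitor of p53, was at 97.7, 148 and 64.4 in circulating, 92.0, 87.8 and 68.9 in irradiated and 100.5, 119 and 70.8 in endogenous LSK, with full overlap. Of 15 RNA processing members 1 passed (Snrpe), of 14 lipid and transport members 1 (Dbi) and of 10 mitochondrial and metabolic members 2 (Uchl5 and Rnpep). The cytoskeleton, matrix and vesicle list had 4 of 17 (Actr3, Arpc5, Epb41l5 and Rab7b). Fcmr was the only measured member of the interleukin 10 and Fc receptor list.

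Along the interval, the 12 members called in endogenous LSK against the mean lay 2, 1, 3, 4, 0, 1, 1 and 0 to successive 5 Mb bins from -20 to 20 Mb, which held 18, 14, 38, 51, 14, 9, 22 and 40 members. Of the 12, 10 lay before Ptprc and 2 (Uchl5 and Rgl1) after it. The median absolute log2 difference of a bin ran from 0.177 at 10 to 15 Mb to 0.381 at -10 to -5 Mb. At the start of the window Tsn, 19.8 Mb before Ptprc, was the first member, and Dsel, 26.3 Mb before it, the nearest gene outside. At the end Sec16b, 19.4 Mb after Ptprc, was the last member, and Gm37848, 20.4 Mb after it, the nearest outside. Their log2 differences in endogenous LSK against the mean were -0.37 for Tsn, 1.12 for Dsel, 0.27 for Sec16b and -0.14 for Gm37848, and 0 of these 4 passed.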

How the data were processed

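RNA of sorted LSK cells was amplified with SMART-Seq v4 and made into Nextera XT libraries, per the labels' protocols, a chemistry that does not mark strand. The submitters' processing notes list mm10, RSEM 1.3.1, CASAVA and limma without saying how each was used. No source used here gives the scaling. The authors deposited a normalised signal: 100% of its values equal a constant of their column times (a 2-decimal number + 0.5), the form of an estimated count plus an offset over a scaled library size.

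Genes were placed with GENCODE M21, which gave a symbol for 14405 rows and none for 56. Under R 4.3.3, limma 3.58.1 fitted all 9 libraries together on log2(value + 1) with an intensity trend and robust moderation, for genes with a value of at least 1 in at least 3 libraries. P-values were adjusted by Benjamini-Hochberg over all 13771 genes tested and called under 0.05. Adding 1 understates the change of low genes. The fit was also run on data simulated on the log2(value + 1) scale, with known changes that left out the lowest genes. Those runs cannot show the effect of adding 1 or how low genes behave, and their outcome is not given here. The planned count test was not used, because the values are not counts.

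The members, gene lists, markers and motifs were chosen with earlier results of these data known. Genes were named if called with a mean log2 value of 2 or more, if among the 4 nearest to Ptprc on each side, if among up to 4 per list, or if at an edge of the window; other named genes were picked after their values were seen. Alternatives were other pseudocounts and filters, fits of 2 groups, sample weights, voom on recovered counts with TMM, scaling by the library total, a replicate block and leaving out each library. Counting error alone limits values near a count of 0, and reads copied by PCR, with no molecular identifiers, are not independent. Some results that the rules select are not reported here.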

Additional observations from a re-analysis of the deposited data

How the results depend on the processing

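The number of members called moved with the fit. Shares of all genes called in these alternative fits were not kept. In circulating against endogenous LSK the 10 members became 3 with only the 2 groups in the fit and 18 when rescaled by the library total. In irradiated against endogenous LSK the 2 became 5 with a minimum value of 5 in 3 libraries, 17 with only the 2 groups and 19 with sample weights. For irradiated LSK against the mean of the others, 0 became 1 (Ppfia4) with sample weights. For circulating LSK against the mean of the others, 6 became 2 with sample weights and 1 with voom. Leaving out 1 library in turn gave 4 to 36 members for circulating against endogenous, 0 to 3 for circulating against irradiated and 0 to 6 for irradiated against endogenous LSK. Against the mean of the others it gave 0 to 1 for irradiated, 2 to 27 for endogenous and 2 to 24 for circulating LSK. The cause was not tested.

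Of the 30 calls, 0 reversed in any of the 18 alternatives. Calls lost were 2, 2, 1 and 2 (of 29 refitted) under pseudocounts of 0.25 and 4, no filter and the stricter filter. They were 7 of 12 with only the 2 groups, 7 with sample weights, 9 with voom, 6 under rescaling and 4 with the replicate block, and 0 to 22 without 1 library.

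The titles number the libraries of each group 1 to 3 without saying what a number marks. Circulating and irradiated libraries share the code before it and endogenous libraries carry another, so the block ties the endogenous libraries to the others by number alone. Same-numbered libraries correlated in their deviations from the group means between -0.0226 and 0.182, and not every library correlated best with its own number. With the replicate block, 13 members were called in circulating against endogenous, 0 in circulating against irradiated and 3 in irradiated against endogenous LSK. Against the mean of the others the block gave 0 for irradiated, 14 for endogenous and 2 for circulating LSK. Circulating replicate 2 was the shallowest library, so changes of genes near a count of 0 were least detectable there.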
